A study of Mus musculus with 6 samples.

Results

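The imprinted growth genes of the uterus were taken as 10 genes named by symbol, *H19*, *Igf2*, *Meg3*, *Dlk1*, *Peg3*, *Peg10*, *Cdkn1c*, *Mest*, *Grb10* and *Plagl1*, which were found by matching the gene identifiers of the deposited tables to mouse gene symbols. All 10 were matched, out of 56748 genes in each table. RNA of the whole uterus was sequenced in 3 control and 3 *Gp130* ecKO libraries, all taken on day 4 of pregnancy (1600 h), shortly before the time of embryo attachment. Each library is called a uterus here, although whether each came from 1 female is not given in the sources used here. *Gp130* ecKO females, labelled as a *Gp130* conditional knockout, were *Ltf* iCre/+; *Gp130* flox/flox, and the controls, labelled WT, were *Ltf* +/+; *Gp130* flox/flox or wildtype. All females were on the C57BL/6 background (C57BL/6J in the methods), were over 8 weeks old and were mated with a wildtype male. The *Ltf* promoter drives the Cre in the uterine epithelium and is also active in some immune cells such as neutrophils, so that the deletion is not expected in stroma or muscle, which are part of the tissue sequenced.

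An imprinted gene is read mainly from the allele inherited from one parent, because DNA methylation laid down in the egg or the sperm is kept at a control region nearby. Many imprinted genes act on growth: paternally expressed genes tend to promote it and maternally expressed genes tend to restrain it. In the uterus *Cdkn1c* is known from the stromal cells that leave the cell cycle to form the decidua. The counts used here do not separate the alleles, so they measure the summed RNA of both, and the words maternally and paternally expressed are background from textbook knowledge.

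Total counts ranged from 13960748 in control 3 to 25906443 in control 2, and the other 4 libraries held at least 22930513. *Il6st*, which encodes Gp130, had 631, 678 and 452 CPM (counts divided by library size, with sizes scaled by the TMM method) in controls 1 to 3 and 388, 350 and 362 CPM in *Gp130* ecKO 1 to 3. The groups did not overlap, with a fitted log2 change of -0.68 ± 0.21 (SE) and an adjusted p of 0.120 by edgeR's quasi-likelihood test. The uteri held RNA of several cell types, since epithelial *Krt8*, stromal *Pdgfra*, smooth muscle *Myh11* and endothelial *Pecam1* were all between 38.9 and 1447 CPM in every library. The blastocyst genes *Cdx2*, *Nanog* and *Pou5f1* did not exceed 0.316 CPM in any library, while *Elf5* and *Eomes* of the same list had 1.01 to 10.6 and 0.912 to 7.0 CPM.

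Control 3 stood apart from the other 5 libraries in long noncoding RNA. *Meg3* had 41.8 CPM there and between 0.124 and 0.423 CPM elsewhere, which is 98.8 times the highest of the others. The same library was highest for *Rian* and *Mirg*, noncoding RNAs of the *Meg3* locus, for *Kcnq1ot1*, the noncoding RNA of the *Cdkn1c* locus, and for *Airn* of the *Igf2r* locus. It was 5.91 times the highest other library for *Rian*, 11.8 times for *Kcnq1ot1* and 2.76 times for *Airn*. *Peg13*, another imprinted noncoding RNA, went the other way, with 12.5 CPM in control 3 and 24.3 to 62.2 CPM in the rest. Further noncoding RNAs, picked for this comparison after their values were seen, were also highest in control 3. *Xist* had 621 CPM against at most 65.0 CPM, *Firre* 63.9 against at most 3.80 CPM, and *Neat1* 309 against at most 43.4 CPM. *Xist* is also in the list of imprinted genes of other clusters used below. Genes annotated as lncRNA took 0.953% of the counts in control 3 and 0.507% to 0.589% in the other libraries. Of 634 such genes with a mean of at least 1 CPM, 45.1% were highest in control 3, as were 33.4% of 13387 protein-coding genes. Counts of genes below are therefore also given without control 3.

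**Figure D1:**
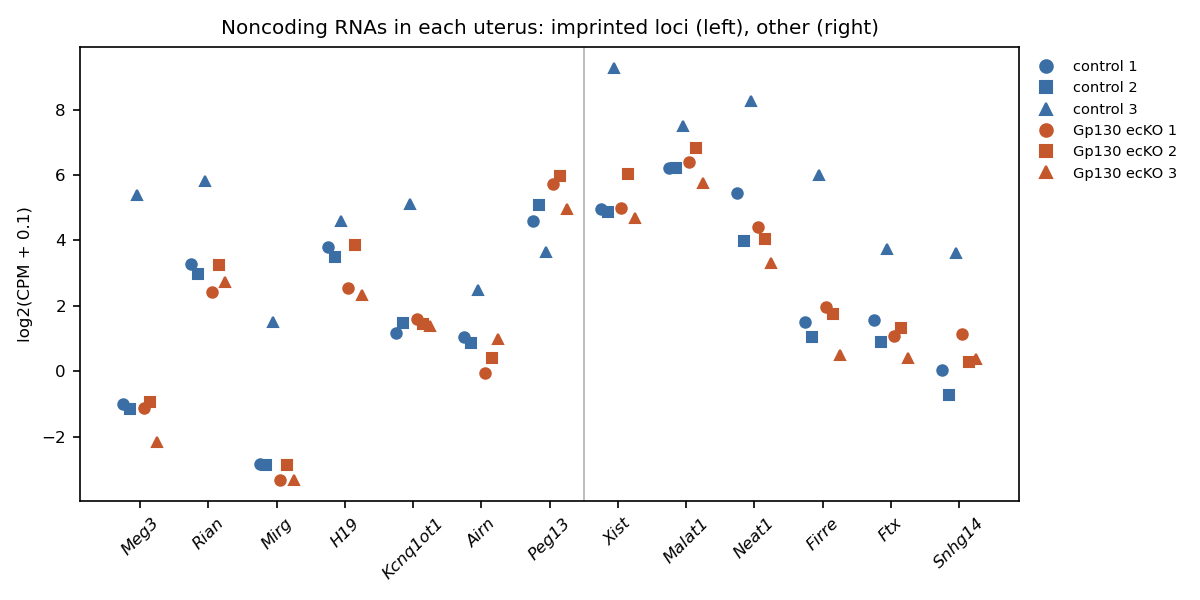
Level of noncoding RNAs as log2(CPM + 0.1) in each of the 6 uteri, with control libraries in blue and *Gp130* ecKO libraries in orange, and marker shapes for the replicate number. Control 3 (blue triangle) is the highest point for every gene drawn except *Peg13*, where it is the lowest. The right side is not free of imprinted genes, since *Xist* is in the list of imprinted genes of other clusters.

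None of the 10 genes was called at an FDR under 0.05 with more than 2-fold change by edgeR's quasi-likelihood test, under which 0.157% of 16605 tested genes were called. *Mest* alone was called by DESeq2 and, in the same filtered set of genes, by edgeR's exact test. Over the whole table DESeq2 called 1546 genes and the exact test 1252, so a call by either was far less rare than by the quasi-likelihood test. 9 of the 10 passed the filter on low counts, and *Meg3* did not. Of these 9, *Mest*, *Grb10*, *Plagl1*, *Igf2* and *Cdkn1c* had an unadjusted p under 0.05, all 5 with lower values in *Gp130* ecKO, against 12.9% of all tested genes in that direction. The values of 4 genes, *Mest*, *Grb10*, *Plagl1* and *Igf2*, did not overlap between the groups and were lower in *Gp130* ecKO, against 15.6% of all tested genes. The fitted change was below 0 for 8 of the 9, with a median of -0.93 (log2), where 52.9% of all tested genes were below 0 and their median was -0.05. Without control 3, where all 10 passed the filter, 3 had an unadjusted p under 0.05 with lower values (9.86% of all tested genes), 4 did not overlap (19.9% of all) and 9 had a change below 0 (50.8% of all), with a median of -0.58. The count of 5 became 1 without *Gp130* ecKO 1 (7.8% of all tested genes) and 3 without *Gp130* ecKO 3 (10.3% of all). In bulk tissue a lower value cannot be told apart as fewer cells of a type or less RNA per cell.

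**Figure D2:**
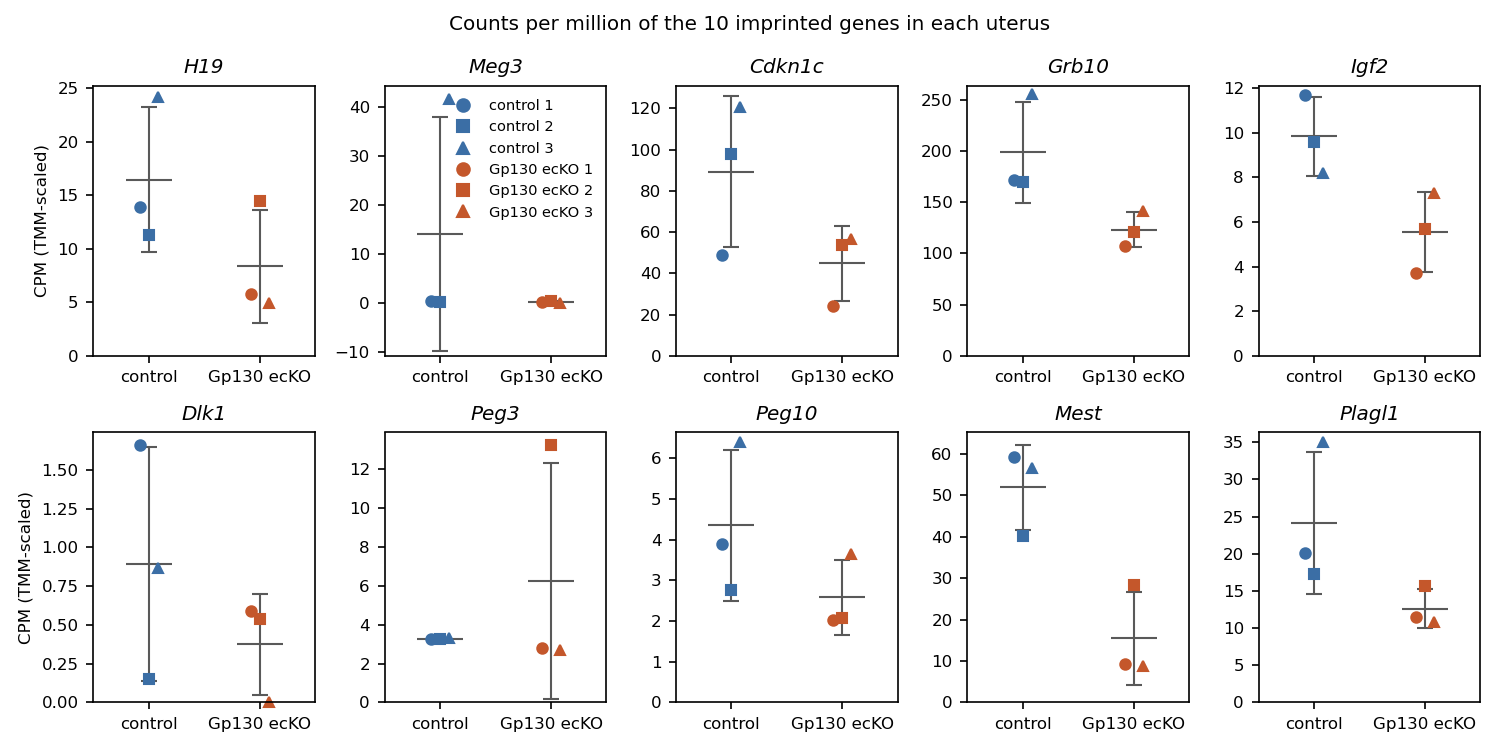
TMM-scaled CPM of each gene (vertical axes differ between panels) in control (blue) and *Gp130* ecKO (orange) uteri, with marker shapes for the replicate number. Horizontal bars are group means and whiskers are ± SD over 3 uteri. The groups are apart for *Grb10*, *Igf2*, *Mest* and *Plagl1*, while *Meg3* is high in control 3 only and *Peg3* is high in *Gp130* ecKO 2 only.

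On the TPM scale, which divides by transcript length and so lets genes be compared, *Cdkn1c* and *Grb10* were the most abundant in control uteri, at 94.0 ± 38.6 and 55.1 ± 17.6 TPM (SD, n = 3). Their ranges overlapped, whereas *Mest*, at 27.9 ± 5.57 TPM, lay below *Grb10* in all 3 controls. *H19* had 13.2 ± 7.21 TPM, *Igf2* 8.89 ± 1.52 TPM and *Plagl1* 6.32 ± 2.77 TPM. *H19* lay below *Mest*, narrowly, and *H19* with *Igf2* and *Igf2* with *Plagl1* overlapped. *Dlk1*, *Peg10* and *Peg3* were at 1.06 ± 1.01, 0.887 ± 0.429 and 0.497 ± 0.0404 TPM, below *Plagl1* in every control, with *Dlk1* overlapping both of the others. *Meg3* was at 0.33 to 0.38 TPM in controls 1 and 2 and at 45.7 TPM in control 3, so its mean has no place in this order.

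Among the maternally expressed genes, *Grb10* encodes an adaptor protein that binds the insulin and IGF1 receptors and restrains their signal. It lies at chr11:11880498-11988683 (GRCm39, minus strand). Its level was 171, 169 and 256 CPM in controls 1 to 3 and 107, 121 and 141 CPM in *Gp130* ecKO 1 to 3. The highest *Gp130* ecKO uterus was below the lowest control, and control 3 was the highest of all. The fitted log2 change was -0.69 ± 0.22 (SE, adjusted p = 0.122), and between -0.77 and -0.47 when each uterus was left out in turn. *Cdkn1c* encodes p57, an inhibitor of cyclin-dependent kinases, at chr7:143012069-143014806 (minus strand). The controls had 49.1, 98.1 and 121 CPM of it, and *Gp130* ecKO uteri 24.1, 53.6 and 56.9 CPM. Control 1 lay within the range of the *Gp130* ecKO uteri, so the groups overlapped, with a fitted log2 change of -0.99 ± 0.41 (SE, adjusted p = 0.194).

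*H19*, at chr7:142129262-142133957 (minus strand), is a noncoding RNA that also carries miR-675 and shares a control region with *Igf2*. Its level was 13.9, 11.3 and 24.1 CPM in controls, against 5.74, 14.4 and 4.93 CPM in *Gp130* ecKO. *Gp130* ecKO 2 was above controls 1 and 2, and the other *Gp130* ecKO uteri were below all controls. The fitted log2 change was -0.97 ± 0.49 (SE, adjusted p = 0.256), and it ranged from -1.61 without *Gp130* ecKO 2 to -0.59 without control 3. *Meg3*, a noncoding RNA at chr12:109506877-109538165 (plus strand), had 10, 9 and 627 counts in controls and 8, 11 and 3 counts in *Gp130* ecKO. In a fit without a filter its log2 change was -5.41 ± 1.76 (SE, adjusted p = 0.176), and without control 3 it was -0.28. Outside control 3 the groups thus held similar small counts.

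Among the paternally expressed genes, *Mest* had the lowest p of the 10. It encodes a membrane protein of the hydrolase family known from the mesoderm of embryos and lies at chr6:30723546-30752058 (plus strand). Controls had 59.2, 40.1 and 56.5 CPM of *Mest*, against 9.27, 28.4 and 8.71 CPM in *Gp130* ecKO. *Gp130* ecKO 2 lay between the other *Gp130* ecKO uteri and the controls, and the groups did not overlap. The mean was 51.9 ± 10.3 CPM in controls and 15.5 ± 11.2 CPM in *Gp130* ecKO (SD, n = 3), a 3.36-fold ratio of means. The fitted log2 change was -1.75 ± 0.47 (SE, unadjusted p = 0.00707, adjusted p = 0.102 by edgeR's quasi-likelihood test). The adjusted p was 0.00723 by DESeq2 and 0.0125 by edgeR's exact test, and over all alternatives it ranged from 0.00723 to 0.278. Without *Gp130* ecKO 2 the log2 change was -2.53, and without any other single uterus it lay between -1.87 and -1.43. *Copg2*, which overlaps the end of *Mest* on the opposite strand, went the other way, with 34.3 to 56.6 CPM in controls and 63.3 to 77.0 CPM in *Gp130* ecKO. Whether strand was used in counting is not given in the sources used here, and without it reads of the 2 genes in their overlap cannot be told apart.

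*Igf2*, at chr7:142204503-142220694 (minus strand), encodes a growth factor that signals through the IGF1 and insulin receptors and is cleared by *Igf2r*. Its level was 11.7, 9.60 and 8.20 CPM in controls, against 3.71, 5.69 and 7.30 CPM in *Gp130* ecKO. The highest *Gp130* ecKO uterus came close to the lowest control, and no value crossed. The fitted log2 change was -0.82 ± 0.33 (SE, adjusted p = 0.180). *Plagl1*, at chr10:12936248-13007438 (plus strand), encodes a zinc finger transcription factor that is known to bind other imprinted genes. Controls had 20.1, 17.3 and 35.1 CPM of *Plagl1*, against 11.4, 15.6 and 10.9 CPM in *Gp130* ecKO. The gap between the groups was small, between *Gp130* ecKO 2 and control 2, and control 3 was again the highest. The fitted log2 change was -0.93 ± 0.32 (SE, adjusted p = 0.141), and -0.57 without control 3.

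*Dlk1*, *Peg10* and *Peg3* were scarce, and their groups overlapped. *Dlk1*, at chr12:109418749-109429262 (plus strand), encodes a membrane protein related to the Notch ligands and is expressed from the same cluster as *Meg3*. Controls held 41, 4 and 13 counts of it, against 13, 14 and 0 counts in *Gp130* ecKO, with the 0 allowing up to 0.124 CPM (3 counts, counting error only). Its log2 change of -1.24 ± 1.00 (SE, adjusted p = 0.463) rested on these few reads, and it was -0.22 without control 1 and -0.63 without *Gp130* ecKO 3. *Peg10*, a gene derived from a retrotransposon and needed for the placenta, lies at chr6:4747306-4760517 (plus strand) and had 3.88, 2.78 and 6.40 CPM in controls and 2.03, 2.08 and 3.65 CPM in *Gp130* ecKO. Only control 2 lay within the range of *Gp130* ecKO, and the log2 change was -0.73 ± 0.44 (SE, adjusted p = 0.328), and -0.36 without control 3. *Peg3*, a zinc finger gene at chr7:6706882-6733468 (minus strand), was the exception in direction. Controls had 3.24, 3.28 and 3.33 CPM of *Peg3*, against 2.80, 13.2 and 2.69 CPM in *Gp130* ecKO. A single uterus, *Gp130* ecKO 2, was high, and the other *Gp130* ecKO uteri were just below the controls. The fitted log2 change was 0.93 ± 0.64 (SE, adjusted p = 0.393), and without *Gp130* ecKO 2 it was -0.25.

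**Figure D3:**
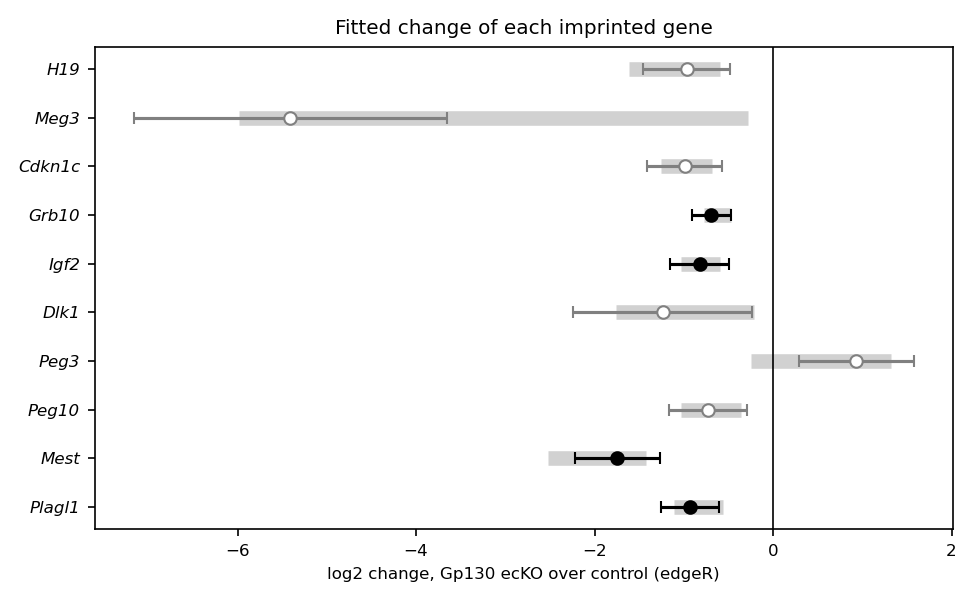
Fitted log2 change of each gene, *Gp130* ecKO over control (edgeR). Points and whiskers are the estimate ± SE with all 6 uteri, filled where the groups did not overlap, and grey bars span the estimates with each uterus left out in turn. The grey bar of *Peg3* crosses 0, and that of *Meg3* runs from -5.99 to -0.28. *Meg3* is from the fit without a filter.

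The 4 genes whose groups did not overlap are shown by their promoters, because they had lower values together in *Gp130* ecKO. Windows from 250 bases before to 50 bases after a start came from RefSeq on GRCm38.p6, a build that differs from that of the gene positions above. They were matched for 7 of the 10 genes in 14 windows, and *H19*, *Peg10* and *Cdkn1c* had no entry. Capitals mark TGCCGC on either strand, the letters bound by ZFP57, a zinc finger protein that guards imprints, when methylated. For each gene the window shown is the one holding TGCCGC, and for *Mest* the first of a pair that hold it. *Mest* has 3 windows, *Igf2* 4, *Grb10* 2 and *Plagl1* 1, and those not shown lack the match apart from the second of that *Mest* pair. The *Mest* window is chr6:30737800-30738099 (plus strand), that of *Grb10* chr11:12037371-12037670 (minus strand), that of *Igf2* chr7:142661222-142661521 (minus strand) and that of *Plagl1* chr10:13090582-13090881 (plus strand).
Mest: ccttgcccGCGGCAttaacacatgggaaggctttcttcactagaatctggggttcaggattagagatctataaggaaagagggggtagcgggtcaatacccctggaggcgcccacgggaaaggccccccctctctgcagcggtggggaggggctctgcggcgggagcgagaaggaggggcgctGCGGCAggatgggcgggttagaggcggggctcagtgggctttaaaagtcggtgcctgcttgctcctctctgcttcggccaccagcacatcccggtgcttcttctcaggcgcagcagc
Grb10: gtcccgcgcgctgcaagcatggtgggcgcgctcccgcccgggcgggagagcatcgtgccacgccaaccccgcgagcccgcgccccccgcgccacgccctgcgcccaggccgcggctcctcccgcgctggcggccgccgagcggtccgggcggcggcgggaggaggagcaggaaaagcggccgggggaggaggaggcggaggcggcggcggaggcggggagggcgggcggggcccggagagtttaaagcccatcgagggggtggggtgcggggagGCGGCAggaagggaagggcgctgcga
Igf2: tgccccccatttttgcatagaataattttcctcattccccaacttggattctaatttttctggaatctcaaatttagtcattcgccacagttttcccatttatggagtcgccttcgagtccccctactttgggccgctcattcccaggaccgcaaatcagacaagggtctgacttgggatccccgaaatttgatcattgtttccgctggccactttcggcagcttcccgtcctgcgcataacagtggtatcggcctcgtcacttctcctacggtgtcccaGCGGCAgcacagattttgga
Plagl1: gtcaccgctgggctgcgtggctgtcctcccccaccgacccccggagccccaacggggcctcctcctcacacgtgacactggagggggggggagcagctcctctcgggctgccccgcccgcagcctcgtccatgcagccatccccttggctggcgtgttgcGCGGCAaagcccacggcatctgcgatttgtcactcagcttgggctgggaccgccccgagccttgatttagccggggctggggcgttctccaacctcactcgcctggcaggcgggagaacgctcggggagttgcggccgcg
TGCCGC was found in 6 of the 14 windows, belonging to 5 of the 7 genes, and in 11.6% of all 32851 promoter windows. The *Mest* window held 2 matches, and another *Mest* window starting 3 bases later held the same bases. The *Grb10* window held 45 CpG, a count at or above that of 98.4% of all windows, and the *Plagl1*, *Mest* and *Igf2* windows shown held 26, 17 and 14 against a median of 7. TGCCGC itself holds a CpG, so choosing windows by it favours such counts, and the windows without it held 9 for *Grb10*, 8 for *Mest* and 24, 7 and 2 for *Igf2*. TTCNNNGAA, the letters that STAT factors bind downstream of Gp130, was in none of the 14 windows and in 8.3% of all. A match describes the letters in a window, and no binding or methylation was measured.

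RSEM also gives each gene an abundance-weighted length, which depends on the transcripts it assigned. That of *Igf2* was 1455, 1486 and 1609 bases in controls and 1836, 1818 and 1952 bases in *Gp130* ecKO. The groups did not overlap, and the mean was 352 bases longer in *Gp130* ecKO, between 310.2 and 398 bases when each uterus was left out. Of the 8 genes of the 10 that were tested and had a varying length *Igf2* alone did not overlap, and over all 13128 tested genes with a varying length 9.67% did not overlap and were longer in *Gp130* ecKO (19.4% in either direction), so 1 of 8 is near the background. The length is RSEM's estimate from 82 to 289 counts per uterus, with no test. RSEM divides reads between overlapping genes: *Gm49394*, a coding gene on the same strand that covers *Igf2*, was given 4 counts in control 2 and 0 elsewhere, and *Igf2os*, on the opposite strand, at most 1 count. *Peg10* was given 6567 bases in every library, and the lengths of the other 8 genes overlapped between the groups.

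Within each uterus, *H19* was compared with *Igf2*, its neighbour under one control region. The ratio of *H19* TPM to *Igf2* TPM was 1.11, 0.777 and 2.84 in controls and 1.52, 2.31 and 0.682 in *Gp130* ecKO. Both groups held uteri on either side of 1. The log2 ratio differed by -0.01 between group means (0.43 ± 0.96 in controls and 0.42 ± 0.89 in *Gp130* ecKO, SD, n = 3), with p = 1.0 by an exact two-sided permutation test, whose smallest possible p is 0.1. With 3 uteri a group this test cannot reach 0.05, so it does not show that the ratio was alike, and the difference was 0.52 without control 3 and 0.47 without *Gp130* ecKO 3. From expected counts in place of TPM it was -0.21. The log2 ratio of *Meg3* to *Dlk1* was -2.47, 1.87 and 5.53 in controls and -1.73 and -0.04 in *Gp130* ecKO 1 and 2. *Gp130* ecKO 3, with *Dlk1* at 0, was left out, and the difference of -2.53 had p = 0.6 by the exact permutation test. With 3 controls against 2 *Gp130* ecKO uteri the smallest possible p of that test is above 0.1. The *Meg3* to *Dlk1* difference was -0.59 without control 3, -4.59 without control 1 and -1.52 with 0.1 TPM added. The mean log2(TPM + 0.1) of the 4 maternally expressed genes minus that of the 6 paternally expressed genes was 1.64, 2.45 and 3.90 in controls and 1.98, 2.07 and 2.51 in *Gp130* ecKO. The group means differed by -0.48, by 0.15 without control 3 and by -0.99 without control 1.

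**Figure D4:**
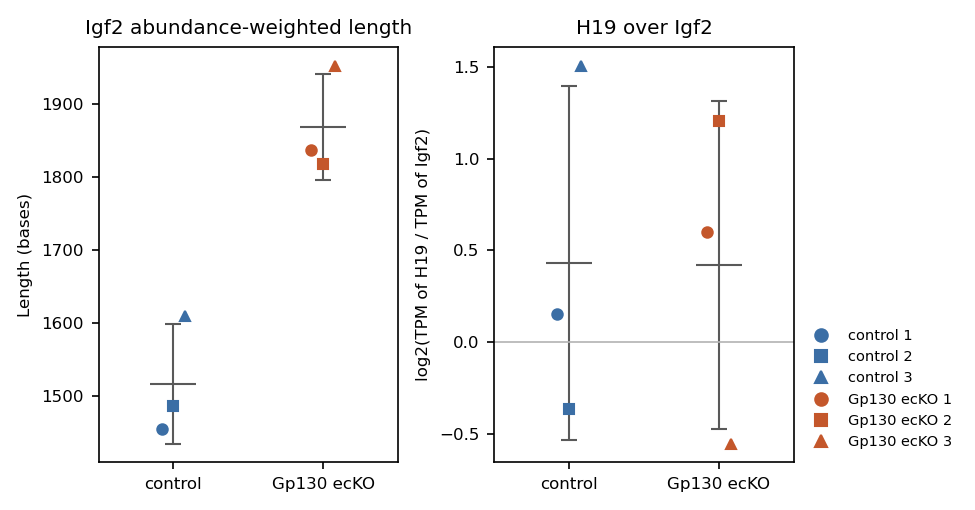
Left, the abundance-weighted length of *Igf2* in bases as RSEM gave it (the axis does not start at 0), and right, the log2 ratio of *H19* to *Igf2* TPM, in each control (blue) and *Gp130* ecKO (orange) uterus with group means ± SD over 3 uteri. The lengths are apart between the groups, from 1455 to 1609 in controls and from 1818 to 1952 bases in *Gp130* ecKO, and the ratios overlap.

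Markers of some cell types also differed between the groups at an unadjusted p under 0.05. Of all markers listed, only *Ovgp1* was called by edgeR's quasi-likelihood test. Of 10 stromal markers, 6 had an unadjusted p under 0.05 and lower values in *Gp130* ecKO, with a median log2 change of -0.82, and 4 without control 3. Over all tested genes 12.9% were lower and 12.1% higher at that p, and without control 3 the shares were 9.86% and 9.21%. Their summed level was 4247 to 5411 CPM in controls and 2200 to 3334 CPM in *Gp130* ecKO, and none was at 0. *Vim*, a filament gene of mesenchymal cells, had a log2 change of -1.02 and *Hoxa10*, a stromal regulator of receptivity, of -0.83. Of 6 endothelial markers, 5 were lower in the same sense (6 without control 3), with summed levels of 362 to 955 CPM against 219 to 354 CPM. Of 9 epithelial markers, 4 were higher at an unadjusted p under 0.05 (3 without control 3), among them the keratin *Krt8* with a log2 change of 1.32. *Epcam* alone of the 9 had a change below 0 (-0.19, and -0.36 without control 3). The summed levels were 2308 to 4143 CPM in controls against 5663 to 7483 CPM in *Gp130* ecKO. Smooth muscle markers gave 0 of 9, also without control 3. Their sum was 2952, 2228 and 624 CPM in controls 1 to 3 and 520, 966 and 3132 CPM in *Gp130* ecKO 1 to 3. Their median log2 change was -0.33, and -0.68 without control 3, where 2 of the 9 did not overlap and were lower (19.9% of all tested genes). Of 7 ovary and oviduct markers 3 were tested. The oviduct glycoprotein gene *Ovgp1* had 47.9 to 85.3 CPM in controls and 552 to 1193 CPM in *Gp130* ecKO and was called higher (log2 change 3.68, adjusted p = 0.0377 by edgeR), and *Star*, a steroidogenic gene, was lower at an unadjusted p under 0.05 (log2 change -1.11). Without control 3, 5 were tested, with 1 higher and 2 lower. The steroidogenic genes *Cyp11a1* and *Hsd3b1*, below the filter, were highest in control 2, at 7.40 and 4.82 CPM, and at most 0.678 CPM elsewhere. Of the 4 mesothelium markers none had an unadjusted p under 0.05 with all uteri, and 3 were lower without control 3, where all 4 did not overlap and the median was -1.26. Control 3 had the lowest mesothelium sum of all libraries, at 33.9 CPM, and also the lowest epithelial sum, at 2308 CPM. Gland (5 tested), lymphocyte (5) and blastocyst (2) markers had none in either case, and 1 of 6 macrophage markers was lower in both. The gland markers summed to 8684 CPM in *Gp130* ecKO 1 and to 108 to 1063 CPM elsewhere. The part of these markers in the lower values of the imprinted genes was not tested.

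**Figure D5:**
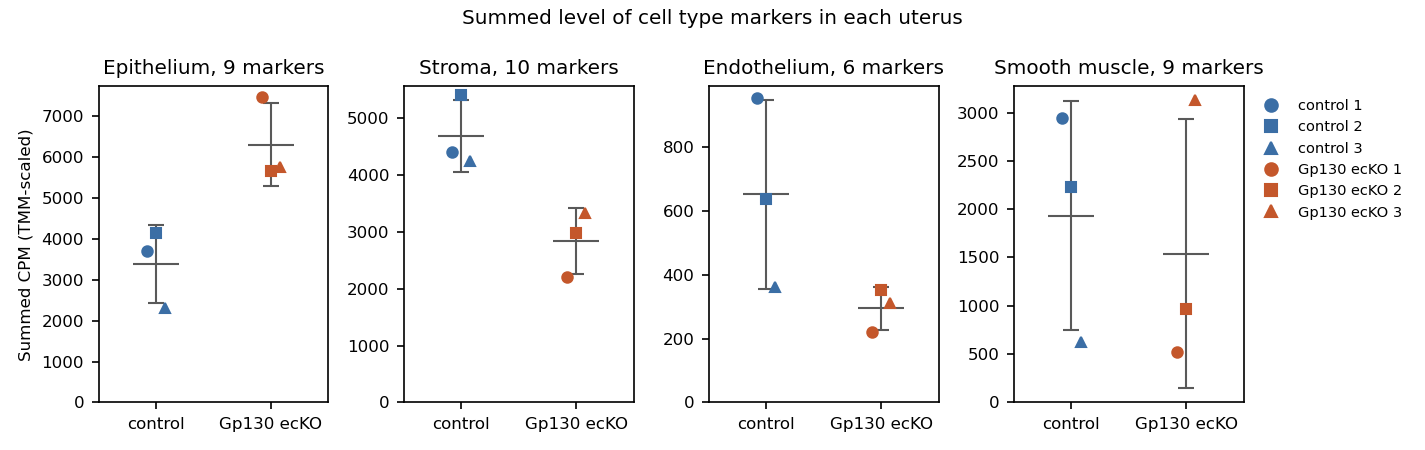
Summed TMM-scaled CPM of the markers of 4 cell types in each control (blue) and *Gp130* ecKO (orange) uterus, with group means ± SD over 3 uteri. Epithelial sums are higher and stromal and endothelial sums lower in all *Gp130* ecKO uteri than in all controls, while smooth muscle sums overlap.

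The genes around the 10 were not uniformly lower. Of 32 genes in the same imprinted clusters, 21 were tested, and 5 were higher and 4 lower at an unadjusted p under 0.05 (12.1% and 12.9% of all tested genes), with a median log2 change of 0.16. Without control 3 these counts were 4 and 1 (9.21% and 9.86% of all tested genes). *Kcnq1*, a potassium channel gene beside *Cdkn1c*, had 2.87 to 8.78 CPM in controls and 20.4 to 48.8 CPM in *Gp130* ecKO, with a log2 change of 2.30 ± 0.48 (SE, adjusted p = 0.0752). *Slc22a18*, a transporter gene of that cluster, had a log2 change of 1.13, and *Pon2* and *Pon3*, lactonase genes beside *Peg10*, of 0.80 and 0.99. *Phactr2*, beside *Plagl1*, had 0.62. On the lower side *Cd81*, a tetraspanin gene near *Igf2*, had -0.44, *Begain* and *Rian* of the *Dlk1* cluster -2.10 and -1.79, and *Dio3*, an enzyme gene that inactivates thyroid hormone, -3.07. Without control 3 the changes of *Rian*, *Begain* and *Dio3* were -0.30, -1.12 and -2.35 and that of *Phactr2* 0.57, with unadjusted p of 0.410, 0.0696, 0.129 and 0.112 by edgeR, and *Cd81* remained the one lower gene.

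Genes of other clusters listed as imprinted were also mixed, and whether each is imprinted in the uterus was not measured. Of 32 listed, 30 were matched and 25 tested, with 5 higher and 5 lower at an unadjusted p under 0.05 and a median of -0.28, against the same 12.1% and 12.9%. Without control 3 these were 4 and 3 (9.21% and 9.86% of all tested genes). *Ndn*, a growth-suppressing gene, had 27.7, 29.0 and 29.9 CPM in controls and 13.2, 16.1 and 17.4 CPM in *Gp130* ecKO, with little spread within either group and a log2 change of -0.89 ± 0.19 (SE, adjusted p = 0.0770). *Snrpn*, a splicing protein gene of the same cluster, went the other way, with 14.7 to 20.8 CPM in controls and 29.0 to 33.5 CPM in *Gp130* ecKO (log2 change 0.88 ± 0.21 SE, adjusted p = 0.0904). *Ube3a*, *Inpp5f*, *Dlx5* and *Peg13* had log2 changes of 0.55, 0.69, 0.87 and 1.05, and *Nnat*, *Peg12*, *Nap1l5* and *Dcn* of -1.28, -1.74, -1.78 and -0.58. Without control 3 those of *Nnat*, *Peg12* and *Peg13* were -0.75, -1.07 and 0.74, with unadjusted p of 0.0858, 0.0816 and 0.0672 by edgeR.

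Among 21 tested receptors, signal proteins and cell cycle partners of the 10 genes, 1 was higher and 7 were lower at an unadjusted p under 0.05 (12.1% and 12.9% of all tested genes), and 1 and 3 without control 3 (9.21% and 9.86%). The higher one was *Irs1*, an adaptor of the insulin and IGF1 receptors, with 9.26 to 26.5 CPM in controls and 83.4 to 171 CPM in *Gp130* ecKO (log2 change 2.79 ± 0.43 SE, adjusted p = 0.0548). The receptors *Igf1r*, *Insr* and *Igf2r* had log2 changes of 0.47, -0.14 and -0.11, with adjusted p of 0.472, 0.769 and 0.729. The lower genes were the cyclins *Ccnd1*, *Ccnd3*, *Ccne1* and *Ccne2* (log2 changes -0.73, -0.65, -1.93 and -1.74), the kinases *Cdk2* and *Cdk4* (-0.83 and -0.50) and the inhibitor *Cdkn1a* (-1.44). Without control 3, *Ccnd3*, *Cdk4* and *Cdkn1a* kept an unadjusted p under 0.05, while *Ccnd1*, *Ccne1*, *Ccne2* and *Cdk2* had log2 changes of -0.76, -1.22, -1.18 and -0.45. *Cdkn1b*, the relative of *Cdkn1c*, had 0.40 with an adjusted p of 0.268.

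A further list held genes that maintain imprints together with genes that set or remove DNA methylation. Of its 11 tested genes, 2 were lower at an unadjusted p under 0.05 (12.9% of all tested genes), and 2 without control 3 (9.86% of all). *Zfp57* had 8.90, 6.40 and 33.8 CPM in controls and 1.45, 3.92 and 1.58 CPM in *Gp130* ecKO, with no overlap and a log2 change of -2.80 ± 0.74 (SE, adjusted p = 0.0980), and -1.72 without control 3. *Uhrf1*, which brings the maintenance methyltransferase to newly copied DNA, had -1.74 with an adjusted p of 0.115 and overlapping groups, and -1.13 without control 3. *Dnmt1*, *Trim28* and *Ctcf* had log2 changes of -0.18, -0.03 and 0.07.

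For each gene the tested gene with the most similar profile over the 6 uteri was found by Pearson's correlation of log2(CPM + 0.5), among about 11880 genes with a mean of at least 5 CPM. The correlations were 0.996 for *H19* with *Vcan*, 0.998 for *Meg3* with *Ccnl2*, 0.997 for *Cdkn1c* with *Abcb6*, 0.996 for *Grb10* with *Mcrip2* and 0.998 for *Igf2* with *Mpg*. They were 0.993 for *Dlk1* with *Inip*, 0.986 for *Peg3* with *Rps15a-ps3*, 0.995 for *Peg10* with *Ap3m1*, 0.996 for *Mest* with *Eif4e3* and 1.000 for *Plagl1* with *Mphosph10*. With 6 points that share the groups and control 3, such values are easily reached: between 3 genes (for *Peg3*) and 227 genes (for *Plagl1*) correlated at 0.95 or more. *Rps15a-ps3*, a pseudogene, had 46.1 CPM in *Gp130* ecKO 2, the uterus in which *Peg3* was high, and at most 2.73 CPM elsewhere. Between the 10 genes themselves the 45 correlations ran from -0.413 (*Peg3* with *Peg10*) to 0.934 (*H19* with *Plagl1*), with a median of 0.600, and it was 0.471 for *H19* with *Igf2*. Of the 45, 5 were below 0, of which all but *Cdkn1c* with *Dlk1* (-0.126) involved *Peg3*.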

How the data were processed

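From poly(A) RNA of control and *Gp130* ecKO uteri the authors made 3 stranded libraries each and sequenced single reads of 75 bp. The submitters' processing notes name fastp 0.23.2, STAR 2.7.10a and RSEM 1.3.3, with GRCm39, and the study's methods add removal of ribosomal RNA reads. The annotation version and the strand setting of RSEM are not given in the sources used here. The deposited tables hold RSEM expected counts, which divide reads shared between genes by a model, TPM, which the authors had corrected for transcript length and depth, and an abundance-weighted length. FPKM was not used.

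Expected counts were rounded and fitted in R 4.3.3 with edgeR 4.0.16 (filterByExpr, TMM, glmQLFit without the legacy setting, glmQLFTest), with Benjamini-Hochberg adjustment over all 16605 tested genes and calls at FDR under 0.05 and more than 2-fold. DESeq2 1.42.0 and the exact test were alternatives. Fold changes are fitted, and CPM used the TMM-scaled library sizes. Symbols came from GENCODE M39, which held 56017 of 56748 identifiers. Genes named are the 10, listed genes with an unadjusted p under 0.05 and defining markers, the most similar gene of each and *Il6st*. Outside this rule, *Copg2*, *Gm49394*, *Igf2os*, the noncoding RNAs highest in control 3, and the receptors, *Cdkn1b*, *Dnmt1*, *Trim28* and *Ctcf* were named after their values were seen. The members and lists were chosen with earlier results of these data known. The labels name replicates but not their source, so p-values measure the spread between these libraries. No pair of libraries was nearly identical. The fit was also run on simulated data, and no result of that run is used here.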

Additional observations from a re-analysis of the deposited data

How the results depend on the processing

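Of 137 refitted changes of single imprinted genes, 133 kept their direction and their side of the threshold, 3 passed it and 1 reversed: *Peg3*, at 0.93, was -0.25 without *Gp130* ecKO 2 and at most 1.32 without another uterus. *Mest* passed with DESeq2 (-1.74, adjusted p = 0.00723) and the exact test (-1.75, adjusted p = 0.0125), as did *Meg3* in the exact test without a filter (-5.44, adjusted p = 0.0499), and the causes were not tested. The number of imprinted genes called was 0, or 1 with either of these tests, and stayed 0 without any 1 uterus. The number not overlapping was 4 to 6 with a uterus left out, while the share of all tested genes rose from 15.6% to between 18.4% and 22% (lower in *Gp130* ecKO). Called genes over the whole table were 26, and 105 without a filter, 7 with the legacy setting, 1252 by the exact test, 1546 by DESeq2, and 1 to 897 without 1 uterus (897 without control 2, 1 without *Gp130* ecKO 3). With the replicate number as a block they were 6, and 0 imprinted genes were called. Uteri with the same number deviated from their group means with correlations of 0.104, 0.0691 and -0.196, and those with different numbers with -0.311 to 0.22. With so few uteri a group these values cannot show whether the numbers mark a pairing. The difference between group means of the log2 ratio of *H19* to *Igf2*, -0.01 with all uteri, ranged from -0.41 to 0.52 without 1 uterus, changing sign without control 3 (0.52) and without *Gp130* ecKO 3 (0.47), and that of *Meg3* to *Dlk1* from -4.59 to -0.59. The counts at an unadjusted p, single listed genes and shares of all genes with a uterus left out, and the *Igf2* length with its share, were chosen after seeing the data. *Dlk1* (0 to 41 counts) and *Meg3* (3 to 11 outside control 3) rest on few reads, control 3 has the fewest in all, and the part of depth in their spread was not tested.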
